A study of Mus musculus with 36 samples.

Results

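The regulators of the integrated stress response followed here are Atf4, Ddit3, Atf3, Atf5, Trib3, Chac1, Ppp1r15a, Cebpb, Nupr1 and Sesn2, measured by RNA-seq in mouse embryonic fibroblasts. They were taken by gene name, with earlier results of these data known, and were 10 of the 49585 genes in each count table. All 10 passed the filter on low counts. The cells were fibroblast lines carrying the N129D substitution in Tbk1, the kinase that relays double-stranded RNA and autophagy signals, on both alleles (hom: line E1.4, line E2.2 and line E2.9) or on 1 allele (het: line E1.3, line E2.5, line E2.6 and line E2.8), and wild-type lines (WT: line E1.5, line E2.1 and line E2.7). Values per line are given in that order. Each of the 10 lines gave 1 library after 4 h with antimycin and oligomycin (AO), which block the mitochondrial respiratory chain and the mitochondrial ATP synthase, 1 after 4 h with poly(I:C), which mimics viral double-stranded RNA, and 1 untreated. WT line E1.5 was also plated densely and sparsely, which gave 6 more libraries, 1 for each treatment at each density. The labels do not say whether each line came from a separate embryo, so p-values measure the spread between these lines.

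In the integrated stress response, a group of kinases phosphorylates the translation factor eIF2, which lowers protein synthesis in general while the mRNAs of Atf4 and a few other genes are translated better. ATF4 then switches on genes of amino acid supply and stress adaptation, among them Ddit3, which encodes CHOP, and the feedback genes that restrain the response. RNA-seq counts the mRNAs and does not measure this translational step. In human cells, mitochondrial damage is known to reach the pathway through the protease OMA1 and the kinase HRI.

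Library totals ran between 3689144 and 14879227 counts in the 30 libraries of the genotype comparison, between 16474011 and 22756870 at high density and between 5391393 and 6307963 at low density. Levels are given as CPM, the count of a gene over its library's total, with that total scaled for composition. Lines E2.6 and E1.4 stood apart over all genes. Their libraries deviated from the median library of the same treatment by a root mean square of 0.62 to 0.67 log2 units for E2.6 and of 0.66 to 1.04 for E1.4, against 0.28 to 0.56 for the 8 other lines. Of 12 fibroblast markers, 10 were detected in every library, and their summed level was between 7784 and 18488 CPM. Summed macrophage markers were between 2.95 and 241 CPM, with all 3 libraries of hom line E2.9 at 141 to 241 CPM. Tbk1 itself had 39 to 49.7 CPM in untreated libraries, and the oxidative stress gene Hmox1 had 255 to 602 CPM under AO against 49.8 to 85.2 CPM in untreated cells.

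Promoter sequence was read for the members to show where elements known to bind factors of the response lie. RefSeq promoter windows on GRCm38.p6, from 250 bases before to 50 bases after the start, matched all 10 members. For Atf3 and Nupr1, both on the minus strand, the RefSeq start lies inside the gene span given below. Sequence at the 5′ ends of those spans, at 191218039 and 126630861, was not read. The C/EBP-ATF response element (CARE), to which ATF4 and CHOP bind with C/EBP partners, was searched on both strands as TGATGNAA. It was found in the windows of Atf3, Chac1, Nupr1 and Trib3, and in 3.97% of all 32851 windows. The cyclic AMP response element, TGACGTCA, was found in Ppp1r15a and in 1.79% of all windows. The AP-1 element, TGANTCA, was found in Ddit3 and in 7.81% of all windows. No member's window held more than 1 of the 3 elements. The sequences below run 5′ to 3′ on the gene's strand, and capitals mark the match.
Atf3, chr1:191183410-191183469, minus strand, CARE starting at base -110: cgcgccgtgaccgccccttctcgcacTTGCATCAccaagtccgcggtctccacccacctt
Chac1, chr2:119351023-119351082, plus strand, CARE starting at base -193: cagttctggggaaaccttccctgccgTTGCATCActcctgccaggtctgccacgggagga
Nupr1, chr7:126625547-126625606, minus strand, CARE starting at base -110: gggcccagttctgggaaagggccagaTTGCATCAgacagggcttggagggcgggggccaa
Trib3, chr2:152344028-152344057, minus strand, CARE starting at base 15 of the transcript: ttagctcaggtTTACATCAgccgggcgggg
Ppp1r15a, chr7:45526269-45526328, minus strand, cyclic AMP response element starting at base -12: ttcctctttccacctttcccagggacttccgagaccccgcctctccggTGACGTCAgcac
Ddit3, chr10:127290543-127290602, plus strand, AP-1 element starting at base -242: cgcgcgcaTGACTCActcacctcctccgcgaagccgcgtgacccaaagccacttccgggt
All 4 CARE matches lie on the same strand relative to their gene. The windows of Atf4, Atf5, Cebpb and Sesn2 held none of these letters.

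Per kilobase of exon, Atf4 was the most abundant member in untreated cells, at 221 ± 49.2 CPM per kb (SD, n = 10 lines). Atf5 followed at 56 ± 19.3, Trib3 at 44.5 ± 18.6, Ddit3 at 40.7 ± 12.2 and Chac1 at 28.2 ± 10.5 CPM per kb. Ppp1r15a at 23.1 ± 3.66, Nupr1 at 22.6 ± 9.05 and Sesn2 at 18.5 ± 3.94 CPM per kb lay below them, and Atf3 at 7.52 ± 2.37 and Cebpb at 5.87 ± 3.09 CPM per kb were lowest. The steps between Atf4 and Atf5, between Ddit3 and Chac1 (narrowly) and between Sesn2 and Atf3 were wider than the SDs of both neighbours, and every other step was within the larger of the 2 SDs. Cebpb shares 312 of its 1504 exon bases with Tmem189 on the opposite strand, and Ddit3, Atf5 and Ppp1r15a share 68, 82 and 12 exon bases with Mars, Nup62 and Tulp2, so their counts carry that uncertainty where strand was not used in counting. Ddit3 also shares 105 exon bases with a second annotated gene of the same name on the same strand, which strand cannot separate and which has no count here.

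On GRCm38, the head factors lie on chromosome 15 at 80255184 to 80257541 (Atf4) and chromosome 7 at 44812256 to 44816658 (Atf5). Their partners lie on chromosome 10 at 127290774 to 127296288 (Ddit3), chromosome 1 at 191170296 to 191218039 (Atf3) and chromosome 2 at 167688915 to 167690418 (Cebpb). The feedback genes lie on chromosome 7 at 45522916 to 45526268 (Ppp1r15a) and chromosome 2 at 152337422 to 152344032 (Trib3). Chac1 lies on chromosome 2 at 119351229 to 119354381, Nupr1 on chromosome 7 at 126623249 to 126630861 and Sesn2 on chromosome 4 at 132492032 to 132510501.

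**Figure D1:**
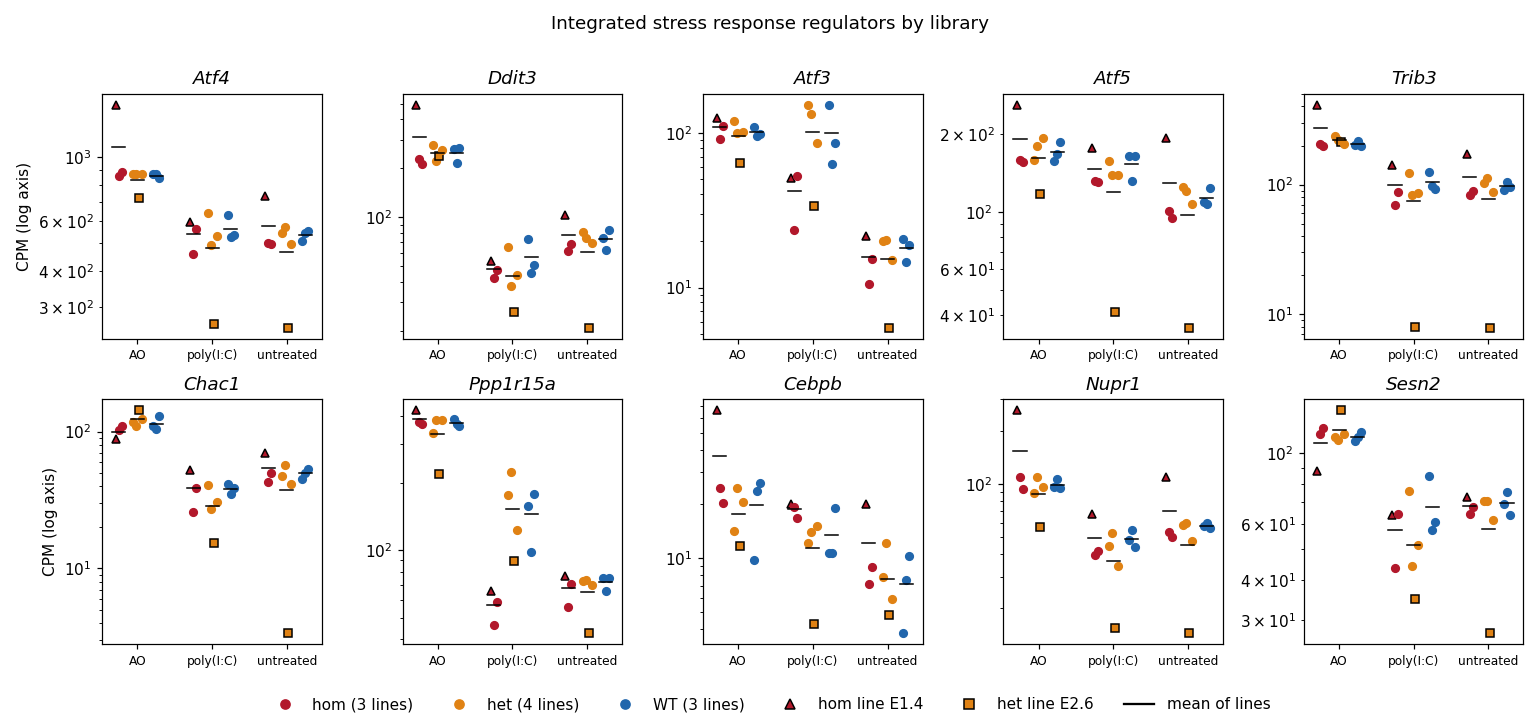
CPM (log axis) of the 10 genes in each of the 30 libraries without a density label, grouped by treatment and coloured by genotype, with black bars for the mean over lines. Over all 10 lines, the mean is highest under AO for every gene. By genotype, the exception is Atf3 in het lines, with means of 96.1 CPM under AO and 101 CPM under poly(I:C). Het line E2.6 (square) is the lowest line in untreated cells for every gene but Cebpb. Hom line E1.4 (triangle) is often above the other lines.

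AO raised the mRNA of all 10 regulators. The question was how fibroblasts of each genotype respond to loss of mitochondrial function. Averaged over the 3 genotypes, 10 of 10 members passed an adjusted p of 0.05 upward, while 17% of the 13364 genes tested did so and 16.7% passed downward (edgeR's quasi-likelihood test, Benjamini-Hochberg adjustment over all genes tested). The median log2 difference was 1.27 over the members and -0.02 over all genes tested. Each member was also higher under AO than untreated in 10 of 10 lines, as were 14.8% of all genes tested. For 6 members, Ddit3, Atf3, Trib3, Chac1, Ppp1r15a and Sesn2, the lowest AO library lay above the highest untreated library, as it did for 2.96% of all genes tested.

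Atf4, the transcription factor at the head of the response, had 1528, 859 and 887 CPM in hom lines under AO, against 730, 501 and 496 CPM in the same lines untreated. It had 873, 873, 722 and 878 CPM in het lines under AO, against 545, 573, 254 and 497 CPM untreated, and 873, 872 and 844 CPM in WT lines under AO, against 512, 543 and 553 CPM untreated. Outside lines E1.4 and E2.6, the 8 AO libraries were nearly level, with an SD of 0.02 log2 units where the median gene had 0.18. Atf4 rose by 0.82 ± 0.15 log2 units (SE, adjusted p = 0.000129), one of the smaller rises among the members.

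Atf5, an ATF4 relative that is also controlled by translation, rose least, by 0.63 ± 0.21 log2 units (adjusted p = 0.024). Its mean over the 10 lines was 173 ± 36.7 CPM under AO and 112 ± 38.4 CPM untreated (SD). That call was lost when line E1.5, E2.1, E2.7, E2.8, E2.2 or E2.9 was left out, with adjusted p between 0.000901 and 0.0733 over the 10 such fits. With each line as a replicate block, the rise was 0.69 ± 0.10 (adjusted p = 1.19e-05).

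Ddit3, whose product CHOP is a stress-induced factor that can promote cell death, had 491, 228 and 211 CPM in hom lines under AO, against 103, 61.4 and 67.8 CPM untreated. In het lines it had 278, 221, 238 and 257 CPM under AO, against 80.6, 74.6, 20.9 and 69 CPM untreated, and in WT lines it had 264, 216 and 268 CPM under AO, against 74.1, 63 and 83.5 CPM untreated. The groups did not overlap in any genotype. Ddit3 rose by 1.93 ± 0.21 log2 units (adjusted p = 1.3e-07).

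Atf3, an immediate-early transcription factor that is also an ATF4 target, rose most, by 2.65 ± 0.26 log2 units (adjusted p = 3.62e-08). It had 125, 91.6 and 110 CPM in the hom lines under AO, against 21.4, 10.5 and 15.2 CPM untreated. In het lines it had 119, 100, 64.3 and 101 CPM under AO, against 20.1, 20.3, 5.51 and 15.1 CPM untreated, and in WT lines 109, 95.9 and 98.8 CPM under AO, against 20.5, 14.7 and 18.7 CPM untreated. Every AO library was above every untreated one.

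Cebpb, a C/EBP factor that pairs with ATF4, had a mean of 24.2 ± 16 CPM under AO and 8.84 ± 4.65 CPM untreated (SD, n = 10) and rose by 1.44 ± 0.28 log2 units (adjusted p = 0.000305). Its AO libraries ran between 9.7 CPM in WT line E1.5 and 66.6 CPM in hom line E1.4, the widest relative range of any member under AO. Nupr1, a small stress-induced chromatin protein, had a mean of 111 ± 54.4 CPM under AO and 56.7 ± 22.7 CPM untreated and rose by 0.95 ± 0.24 (adjusted p = 0.00335). Line E1.4 had 260 CPM under AO, where the other 9 lines had 57.3 to 110 CPM.

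The feedback and effector genes rose as well. Ppp1r15a, which encodes GADD34, the stress-induced subunit that directs a phosphatase to eIF2, had 422, 376 and 366 CPM in hom lines under AO, against 76.3, 55.8 and 70.8 CPM untreated. It had 336, 383, 219 and 382 CPM in het lines under AO, against 73, 73.5, 42.6 and 69.9 CPM untreated, and 386, 366 and 359 CPM in WT lines under AO, against 75, 66 and 75.5 CPM untreated. The rise was 2.41 ± 0.15 log2 units (adjusted p = 1.93e-10), and its log2 ratio within lines, with a median of 2.38 and a highest value of 2.75, had the narrowest range among the 10 members.

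Trib3, a pseudokinase that binds ATF4 and CHOP and restrains them, had a mean of 231 ± 64.7 CPM under AO and 94.6 ± 39.6 CPM untreated and rose by 1.28 ± 0.34 log2 units (adjusted p = 0.00548). Chac1, a glutathione-degrading enzyme, had 113 ± 15.6 CPM under AO and 46.1 ± 17.1 CPM untreated and rose by 1.27 ± 0.26 (adjusted p = 0.000485). Sesn2, a leucine sensor that restrains mTORC1, had 113 ± 11.7 CPM under AO and 64.4 ± 13.7 CPM untreated and rose by 0.79 ± 0.14 (adjusted p = 0.000132). For all 3 genes, the lowest untreated library was that of line E2.6.

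Within single genotypes, fewer members passed. AO against untreated called 5 members higher in hom lines (Atf3, Ddit3, Atf4, Cebpb and Ppp1r15a, with 7.36% of all genes called higher), 6 in het lines (Atf3, Ddit3, Atf4, Chac1, Sesn2 and Ppp1r15a, 6.17% of all genes) and 3 in WT lines (Atf3, Ddit3 and Ppp1r15a, 4.23% of all genes). With the lines paired as a replicate block, 9, 10 and 9 members were called higher in hom, het and WT lines, beside 14.6%, 12.9% and 11.2% of all genes. Without lines E2.6 and E1.4, a choice made after seeing the data, all 10 were called in each genotype, beside 10.7%, 12.8% and 12.1% of all genes. Leaving out E2.6 alone gave 9 in hom and 7 in WT lines, and leaving out E1.4, E2.2 or E2.9 gave 3 in hom lines. With only the compared groups in the fit, 1 member was called in hom lines (Ppp1r15a, adjusted p = 0.0249), 5 in het lines and 9 in WT lines. The share of all genes called is not given for these fits or for those without 1 line. Their counts therefore cannot be read as particular to the members.

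**Figure D2:**
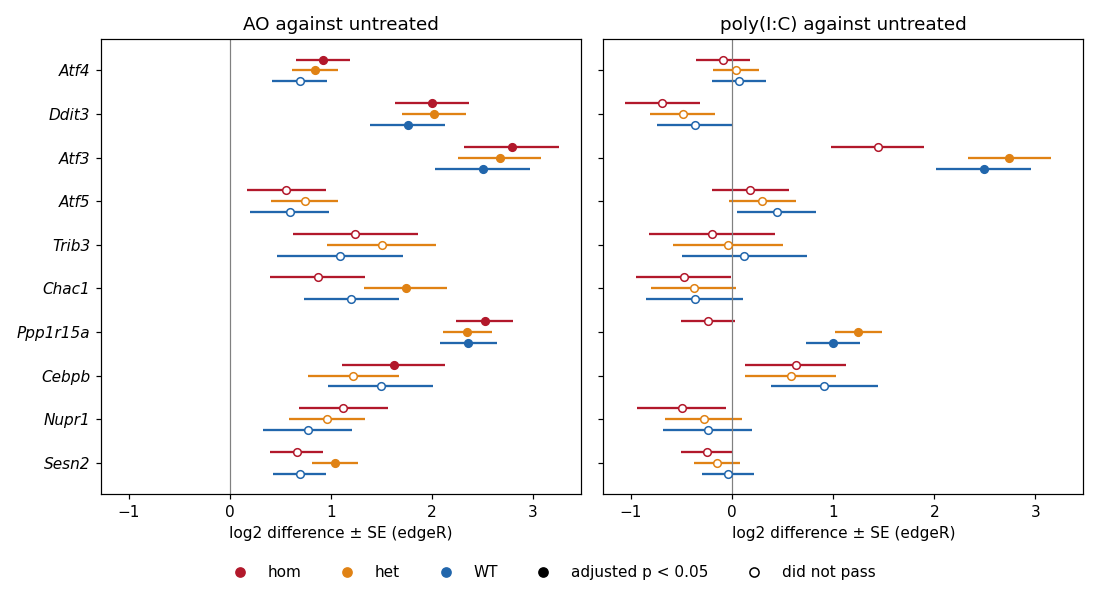
Fitted log2 differences of AO (left) and poly(I:C) (right) against untreated libraries for each gene and genotype, with bars for the standard error and filled points where the adjusted p is below 0.05. All AO differences are positive, with called values of 0.84 to 2.79, and on the right only Atf3 and Ppp1r15a in het and WT lines are filled.

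Poly(I:C) raised 2 of the regulators. Averaged over genotypes, Atf3 rose by 2.22 ± 0.26 log2 units (adjusted p = 1.59e-06) and Ppp1r15a by 0.67 ± 0.15 (adjusted p = 0.00214). These 2 of 10 members were called higher and 0 lower, where 9.91% of all genes tested were called higher and 11.8% lower. By unadjusted p under 0.05, 3 were higher and 1 lower. The members' median log2 difference was -0.02, and that of all genes was -0.00. With the replicate block, 4 members were called higher, adding Cebpb at 0.75 ± 0.16 (adjusted p = 0.0012) and Atf5 at 0.32 ± 0.10 (adjusted p = 0.0169), beside 19.8% of all genes. In the same fit 2 were called lower, Ddit3 at -0.50 ± 0.14 (adjusted p = 0.00751) and Nupr1 at -0.32 ± 0.10 (adjusted p = 0.0124), beside 19.6% of all genes. Without lines E2.6 and E1.4, 4 members were called higher and 3 lower, with Chac1 now among the lower ones, beside 19% and 19.6% of all genes. Without E2.6 alone, 4 members were called, a count with no share of all genes beside it.

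Atf3 was the only member whose poly(I:C) libraries all lay above all untreated libraries, as 1.08% of genes did. It had 51, 23.4 and 52.8 CPM in hom lines under poly(I:C), against 21.4, 10.5 and 15.2 CPM untreated. It had 152, 132, 33.7 and 85.9 CPM in het lines, against 20.1, 20.3, 5.51 and 15.1 CPM untreated, and 152, 62.8 and 86.1 CPM in WT lines, against 20.5, 14.7 and 18.7 CPM untreated. The hom libraries were the lowest outside line E2.6.

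Ddit3 had a mean of 48.6 ± 13.6 CPM under poly(I:C) and 69.7 ± 20.9 CPM untreated (SD, n = 10), a log2 difference of -0.52 ± 0.20 that did not pass without the block (adjusted p = 0.0722). It was lower in 9 of 10 lines, the exception being E2.6. Chac1 and Nupr1 were likewise lower in 9 of 10 lines, again with E2.6 as the exception. The share of all genes that did the same was not counted, so these line counts cannot be read as particular to these genes. Atf4 differed by 0.01 ± 0.15 (adjusted p = 0.987) and was higher in 5 lines and lower in 5. Trib3 differed by -0.04 ± 0.34 and Sesn2 by -0.15 ± 0.14, and neither passed with or without the block. Cebpb had 14.2 ± 4.91 CPM under poly(I:C) and 8.84 ± 4.65 CPM untreated, and Atf5 had 138 ± 37.7 CPM under poly(I:C) and 112 ± 38.4 CPM untreated.

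Set directly against poly(I:C), AO gave higher levels of 8 members, with the exceptions of Atf3 at 0.43 ± 0.24 log2 units (adjusted p = 0.162) and Atf5 at 0.33 ± 0.21 (adjusted p = 0.236). Of all genes tested, 21% were called higher. The widest gaps were those of Ddit3, at 2.45 ± 0.21, Ppp1r15a, at 1.74 ± 0.15, and Chac1, at 1.68 ± 0.27. All 10 were called with the replicate block, beside 26.1% of all genes. The call of Cebpb (0.73 ± 0.28, adjusted p = 0.0362) was lost when line E2.1, E2.7, E1.3, E2.5, E2.8 or E1.4 was left out, with adjusted p of 0.0381 to 0.134 over the 10 fits. This comparison and the 2 above it share libraries.

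**Figure D3:**
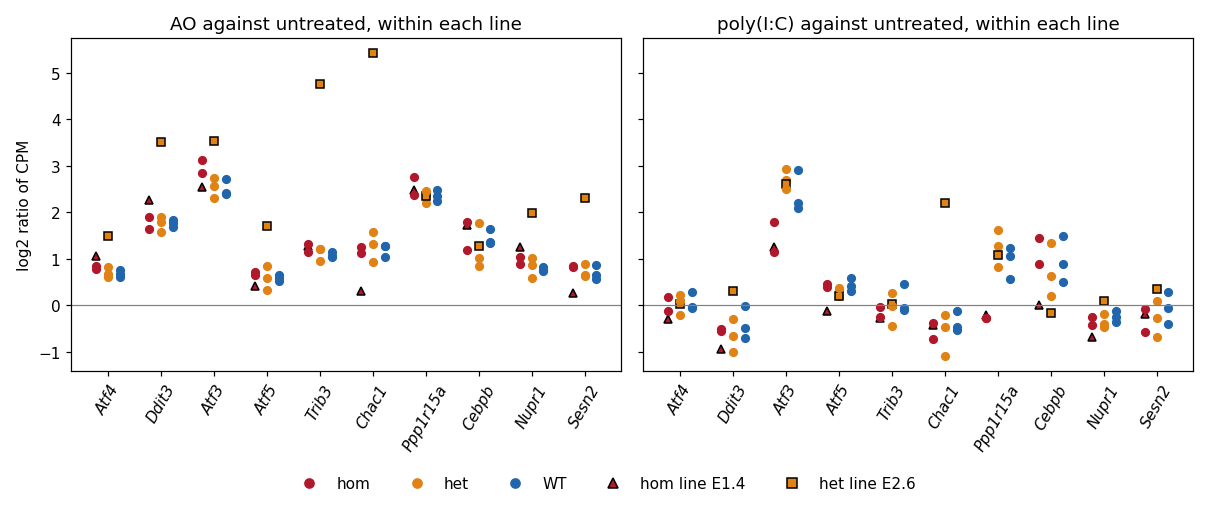
The log2 ratio of AO (left) or poly(I:C) (right) to untreated CPM within each of the 10 lines, coloured by genotype. All AO ratios are above 0, those of E2.6 (squares) reach 4.75 for Trib3 and 5.42 for Chac1, and the 3 hom ratios of Ppp1r15a under poly(I:C) lie between -0.28 and -0.21 while the other 7 are above 0.

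Under poly(I:C), 1 member differed between hom and WT lines by the test, the eIF2 phosphatase subunit gene Ppp1r15a. It had 65.8, 46.4 and 58.5 CPM in hom lines, against 157, 98.2 and 179 CPM in WT lines. The het lines had 176, 224, 89.9 and 123 CPM. The 3 hom libraries were below all 7 others, and in hom lines the gene was below its own untreated level in each line.

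The hom minus WT difference of Ppp1r15a under poly(I:C) was -1.34 ± 0.27 log2 units (adjusted p = 0.0356), and it was the only member called in that comparison, beside 0.254% of all genes called lower. By unadjusted p under 0.05, 2 members were lower. Ppp1r15a and Atf3 were the 2 members whose hom libraries all lay below the WT libraries, as 5.46% of all genes did. Atf3 differed by -1.24 ± 0.44 and did not pass (adjusted p = 0.614). The Ppp1r15a call was lost in 8 of the 10 fits that left out 1 line, those without E1.5, E2.1, E2.7, E1.3, E2.8, E1.4, E2.2 or E2.9, with adjusted p of 0.00144 to 0.34 and log2 differences of -1.55 to -1.17. It was also lost when hom and WT poly(I:C) libraries were fitted alone (-1.35 ± 0.24, adjusted p = 0.0631). Without lines E2.6 and E1.4 it was called at -1.46 ± 0.23 (adjusted p = 0.0283), beside 0.135% of all genes called lower.

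Measured within lines, Ppp1r15a had a mean log2 ratio of -0.25 ± 0.03 in hom lines and 0.96 ± 0.35 in WT lines (SD, n = 3 each). The two-sided exact permutation test gave p = 0.1, the smallest that 3 lines against 3 allow. The ratio of poly(I:C) to untreated CPM of Atf3 was 2.38, 2.23 and 3.47 in hom lines and 7.44, 4.28 and 4.62 in WT lines (exact permutation p = 0.1 on the log2 scale, again the smallest possible). In het lines the mean log2 ratios were 1.19 ± 0.33 for Ppp1r15a and 2.68 ± 0.18 for Atf3 (n = 4).

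The fitted difference in response, hom minus WT, was -1.25 ± 0.38 for Ppp1r15a, which did not pass over all genes (adjusted p = 1), and -1.22 ± 0.22 with the replicate block (adjusted p = 0.103). For Atf3 it was -1.05 ± 0.64 (adjusted p = 1) and, with the block, -1.02 ± 0.34 (adjusted p = 0.805). No member and 0% of all genes passed in any of the 4 differences in response (AO or poly(I:C), hom or het minus WT) by edgeR. Unadjusted p was under 0.05 for 1 member, Ppp1r15a, in the poly(I:C) response of hom minus WT, and for 0 members in the other 3 differences, and DESeq2 called 0 in all 4. With the replicate block, 2 members, Ppp1r15a and Atf3, had an unadjusted p under 0.05 in the poly(I:C) response of hom minus WT.

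Within genotypes, poly(I:C) called Atf3 and Ppp1r15a higher in het lines (2.74 ± 0.41 and 1.25 ± 0.23 log2 units, with 2.24% of all genes called higher) and in WT lines (2.49 ± 0.47 for Atf3, and a fitted 2-fold for Ppp1r15a at adjusted p = 0.04, with 1.29% of all genes). In hom lines it called 0 members higher, where 0.554% of all genes were called higher, although 1 member had an unadjusted p under 0.05 and DESeq2 called 1. With the replicate block 1 member was called higher in hom lines, Atf3 at 1.43 ± 0.24 (adjusted p = 0.00109, beside 5.71% of all genes), 2 in het lines (8.81%) and 3 in WT lines, Cebpb added (7.53%). Ppp1r15a in hom lines stood at -0.24 ± 0.27 without the block and -0.25 ± 0.15 with it. In WT lines, leaving out line E1.5 or E2.7 left 0 members called, and leaving out E2.1, E1.3, E2.8, E2.2 or E2.9 left 1. In het lines, both calls were lost with only the compared groups in the fit (adjusted p = 0.055 for Atf3 and 0.0796 for Ppp1r15a).

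Ifnb1, the interferon beta gene that TBK1 signalling switches on, moved with these values under poly(I:C). It had 0 to 0.533 CPM in hom lines, 7.39 to 50.6 CPM in het lines and 9.32 to 23.5 CPM in WT lines, and 0 CPM in all untreated libraries. Its part in the difference of Ppp1r15a was not tested.

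Under AO, genotype made no difference that passed. Hom minus WT differences of the members ran between -0.19 ± 0.46 for Chac1 and 0.89 ± 0.49 for Cebpb, and het minus WT differences between -0.17 for Ppp1r15a, Cebpb and Nupr1 and 0.12 ± 0.43 for Chac1. The standard errors were 0.24 to 0.61 log2 units, so the missed threshold does not show that the genotypes respond alike. Of all genes, 0% were called in either comparison. Untreated, 0 members were called in hom against WT (0.015% of all genes) and 0 in het against WT (0%), and under poly(I:C) 0 were called in het against WT (0%). In these 5 comparisons no member had an unadjusted p under 0.05 by edgeR, and DESeq2 called 0.

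Spread of the members over the 10 lines differed by treatment. The median SD over the 10 lines was 0.29 log2 units for the members and 0.34 for all genes tested under AO, 0.59 and 0.25 under poly(I:C), and 0.61 and 0.25 in untreated libraries. Leaving out E2.6 and E1.4 brought the untreated SD of Trib3 to 0.15 where it had been 1.20 and that of Chac1 to 0.15 where it had been 1.25. Without those lines, the members' SDs ran between 0.02 (Atf4) and 0.50 (Cebpb) under AO. Untreated, they ran between 0.08 (Atf4) and 0.51 (Cebpb), so the 2 ranges were close. The median SD of all genes was then 0.18 under AO, 0.21 under poly(I:C) and 0.18 untreated. Under poly(I:C), the SDs of Atf3 and Ppp1r15a were 0.92 and 0.77 over 10 lines and 0.92 and 0.81 over 8, so the spread of those 2 genes did not narrow.

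Het line E2.6 had low basal levels of the members. Trib3 had 7.91 CPM (66 counts) in untreated E2.6, 0.0842 of the median of the 8 lines other than E2.6 and E1.4, which had 82.6 to 113 CPM. Chac1 had 3.36 CPM (28 counts), 0.0692 of the median of the 8 lines at 41.6 to 57 CPM. Nupr1 stood at 0.252, Ddit3 at 0.292, Atf3 at 0.326, Atf5 at 0.33, Sesn2 at 0.399 and Atf4 at 0.482 of their 8-line medians. In all, 8 of the 10 members were below 0.5 of the median in untreated E2.6, as were 5.33% of all genes tested, and the other two, Ppp1r15a and Cebpb, were at 0.592 and 0.625.

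Under AO, 3 members in E2.6 were above the 8-line median. Trib3 had 214 CPM in E2.6, 1.05 times the 8-line median, Chac1 had 143 CPM, 1.32 times, and Sesn2 had 136 CPM, 1.19 times. Ddit3 was at 0.98 of the median, Atf4 at 0.827, Atf5 at 0.718, Atf3 at 0.641 and Nupr1 at 0.596. Ppp1r15a, at 0.591, and Cebpb, at 0.53, were no nearer to the median than in untreated cells. No member was below 0.5 of it, where 4.83% of all genes tested were, so that count is near the share over all genes. Within E2.6 the AO ratio was 5.42 log2 units for Chac1, against 0.93 to 1.58 in the 8 lines, and 4.75 for Trib3, against 0.95 to 1.31. Under poly(I:C) 7 of 10 members were below 0.5 of the median in E2.6, beside 6.97% of all genes tested, and Trib3 had 8.05 CPM, 0.0894 of the median.

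The low basal level of E2.6 extended to other ATF4 targets. Of 22 other ATF4 targets in amino acid supply, 16 were below 0.5 of the 8-line median in untreated E2.6, with a median log2 ratio of -1.45, and of 23 other ATF4 and CHOP stress targets 9 were. Of 24 genes for eIF2, its kinases and their regulators, 0 were below 0.5 of the median, with a median log2 ratio of 0.01, and of 20 genes of the ATF6 and XBP1 arms 1 was. Those last 2 counts are near the 5.33% of all genes tested that were below it, so they say nothing particular about these lists. All of these counts rest on 1 line and have no test. Summed markers in E2.6 were 34.6 to 54.2 CPM for macrophages, 23.2 to 35.5 CPM for endothelium and 19.6 to 29.3 CPM for muscle. In WT libraries they were 2.95 to 5.5, 6.58 to 16.3 and 0.575 to 7.1 CPM. Higher sums were found in hom line E2.9 for macrophages (141 to 241 CPM) and in hom line E1.4 for muscle (30 to 35.8 CPM). Over all 30 libraries, 3 of 12 macrophage, 2 of 8 endothelial (with 1 at 0 throughout) and 1 of 8 muscle markers were detected in every library. The part of these markers in the result was not tested. In bulk libraries, fewer cells making an mRNA and less mRNA per cell cannot be told apart.

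In hom line E1.4, 4 members under AO, Ddit3, Trib3, Cebpb and Nupr1, were above 2 times the 8-line median, at 2.02, 2.02, 3.03 and 2.71 times, as were 14.4% of all genes tested in that library. Under poly(I:C) 0 members were, beside 4.14% of all genes, with Ppp1r15a at 0.471 and Atf3 at 0.593 of the median. Untreated, only Cebpb was, at 2.61 times, beside 4.78% of all genes. The median log2 ratio of E1.4 under AO was -0.25 for the other ATF4 targets in amino acid supply and 0.01 for the other ATF4 and CHOP stress targets. Chac1 and Sesn2 went the other way under AO, at 0.805 and 0.773 of the median, each the lowest of the 10 lines. Both the lowest and the highest summed fibroblast level of the 30 libraries, 7784 and 18488 CPM, were in E1.4, where summed muscle markers were 30 to 35.8 CPM and neural markers 221 to 546 CPM. The part of these in the levels of E1.4 was not tested.

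Other genes of the pathway were counted as lists, with calls over all genes tested. Of all genes tested, AO called 17% higher and 16.7% lower. AO raised 16 of 22 other ATF4 targets in amino acid supply and lowered 0, with a median log2 difference of 0.77 beside -0.02 over all genes. The genes with the smallest p were Got1, an aspartate aminotransferase (1.18 ± 0.09), and the transporter genes Slc3a2 (1.57 ± 0.14) and Slc38a2 (0.89 ± 0.09). Of 23 other ATF4 and CHOP stress targets, 21 rose and 1 fell (median 0.85), led by the autophagy receptor gene Sqstm1 (1.41 ± 0.10), the growth arrest gene Gadd45a (2.12 ± 0.21) and the secreted stress factor gene Gdf15 (3.17 ± 0.35). Poly(I:C) raised 1 and lowered 2 of the amino acid supply genes, the lowered ones being Slc38a2 (-0.28 ± 0.09) and Gpt2 (-0.61 ± 0.20). It raised 2 and lowered 1 of the other stress targets, among them Bcl2l11, a pro-apoptotic gene (0.50 ± 0.13), and Sqstm1 (0.37 ± 0.10). Of all genes tested, poly(I:C) called 9.91% higher and 11.8% lower. Its counts in both lists were near or below those shares, so they say nothing particular about the lists.

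Of 24 genes for eIF2, its kinases, eIF2B and their regulators, AO raised 6 and lowered 4 (median 0.05), counts near the 17% and 16.7% of all genes called higher and lower. Eif2s2, an eIF2 subunit gene, rose by 0.62 ± 0.10, Ppp1r15b, the constitutive counterpart of Ppp1r15a, rose by 0.43 ± 0.08, and Oma1, the mitochondrial protease gene, fell (-0.69 ± 0.11). Poly(I:C) raised 6 and lowered 5 of them (median 0.07, beside 9.91% and 11.8% of all genes), with Eif2ak3, the gene of the endoplasmic reticulum kinase PERK, at -0.77 ± 0.11 and Ppp1cc, a phosphatase catalytic subunit gene, at -0.22 ± 0.05. Among 15 tested of 17 relatives of the members, AO raised 6 and lowered 4, including Atf6 (230 CPM under AO and 93.7 CPM untreated), Atf1 (0.52 ± 0.06) and Trib2 (-2.22 ± 0.25), which moved opposite to Trib3. Poly(I:C) raised 1, Cebpd (1.09 ± 0.30), and lowered 3, among them Atf2 (-0.51 ± 0.06), counts near the 9.91% and 11.8% of all genes.

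The ATF6 and XBP1 arms of the unfolded protein response gave 5 higher and 3 lower of 20 genes under AO (median 0.03), likewise near the share over all genes, with Herpud1 (1.35 ± 0.15), Dnajb9 (1.02 ± 0.10) and Hspa5 (0.59 ± 0.12) leading. Under poly(I:C) 1 was higher, Calr (0.23 ± 0.06), and 3 were lower, among them Edem1 (-0.25 ± 0.06), again near that share. A further list held 15 immediate-early genes, chosen as independent of ATF4, which was not tested here. Of these 15, AO raised 12 (median 0.88), beside 17% of all genes. Among them were Myc (1.28 ± 0.11), Ier3 (89.6 CPM under AO and 44.6 CPM untreated) and Fosl1 (1.20 ± 0.18). Poly(I:C) raised 13 of the 15 (median 1.12, beside 9.91% of all genes), including Klf6 (1.12 ± 0.09) and Jun (1.09 ± 0.10). In both treatments Atf3, which the immediate-early list does not hold, rose together with most genes of that list.

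Across the 30 libraries, which share lines and treatments, the members were correlated with each other in log2 CPM, with Pearson's r between 0.468 for Atf3 and Nupr1 and 0.95 for Atf4 and Nupr1. The genes most like Atf4 over all tested genes were Eif4ebp1 (0.963), Hax1 (0.962) and Gadd45a (0.953), and those most like Ddit3 were Herpud1 (0.961), Mterf3 (0.959) and Gadd45a (0.958). Nupr1 was most like Eif4ebp1 (0.954), Atf4 (0.95) and Psph (0.948), and Trib3 most like Psph (0.957), Atf4 (0.943) and Asns (0.943). Atf5 was most like Asns (0.942), Trib3 (0.921) and Gars (0.916). Over the 24 libraries without lines E2.6 and E1.4, r for Atf5 was 0.85 with Asns, 0.817 with Gars and 0.731 with Trib3, and for Trib3 it was 0.988 with Atf4, 0.91 with Psph and 0.863 with Asns. Chac1 and Sesn2 were each other's nearest gene (0.948). Slc1a4 was next for both, at 0.925 with Chac1 and 0.935 with Sesn2, followed by Herpud1 for Chac1 (0.92) and Ciart for Sesn2 (0.922).

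Atf3 was most like Myc (0.924), Ccnl1 (0.9) and Cnot4 (0.892), and Ppp1r15a most like Chka (0.942), Sqstm1 (0.93) and Clk4 (0.907). Cebpb had the weakest neighbours, Ubb (0.888), Pole4 (0.873) and Emc3 (0.872), at 0.869, 0.765 and 0.774 over the 24 libraries. None of the 10 members was among the 3 nearest genes of Atf3, Ppp1r15a or Cebpb, and the same held for Atf4 and Ddit3.

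Plating density was examined in WT line E1.5 alone, with 1 library per density and treatment, so the test across the 3 treatments takes their libraries as replicates of density. High density gave higher levels of 7 of 10 members, where 8.62% of 12229 genes tested were called higher. They were Ddit3 (0.63 ± 0.09 log2 units, adjusted p = 0.000635), Atf5 (0.49 ± 0.07, adjusted p = 0.000603), Cebpb (0.66 ± 0.19, adjusted p = 0.0354), Ppp1r15a (0.58 ± 0.18, adjusted p = 0.0468), Nupr1 (0.32 ± 0.08, adjusted p = 0.016), Trib3 (0.31 ± 0.09, adjusted p = 0.038) and Atf4 (0.23 ± 0.05, adjusted p = 0.0125). Of these, Ddit3 and Atf5 were called whichever treatment was left out. Trib3, Cebpb and Nupr1 were lost without the untreated or the poly(I:C) pair, Atf4 without the untreated or the AO pair, and Ppp1r15a without the poly(I:C) or the AO pair. Those fits called 3 members without the untreated pair, 4 without the poly(I:C) pair and 6 without the AO pair, and DESeq2 called 4. The share of all genes called is not given for them. Atf3, uncalled over all 3 treatments (0.42 ± 0.25, adjusted p = 0.281), was lower at high density under AO. Total counts were also higher in the high-density libraries.

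Ddit3 had 354 CPM at high density and 209 CPM at low density under AO, 67.5 and 51.1 CPM under poly(I:C), and 88.2 and 54.8 CPM untreated. Atf5 had 214 CPM at high and 132 CPM at low density under AO, 194 and 152 CPM under poly(I:C), and 134 and 101 CPM untreated. Both were higher at high density in every treatment, as were Atf4, Trib3, Ppp1r15a, Cebpb, Nupr1 and Sesn2. The share of all genes that did the same was not counted, so this cannot be read as particular to the members. Some gaps were small, with log2 ratios of 0.07 for Trib3 under AO, 0.08 for Sesn2 under poly(I:C) and 0.12 for Ppp1r15a untreated.

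The widest density gap was that of Ppp1r15a under poly(I:C), with 195 CPM (3142 counts) at high density and 70.9 CPM (351 counts) at low density, and 155 CPM in the E1.5 library with no density label. Its log2 ratio to untreated was 1.18 at high density, -0.16 at low density and 1.05 without a label. Atf3 had 150 CPM at high density, 57.5 CPM at low density and 151 CPM without a label under poly(I:C), with ratios of 2.63, 1.58 and 2.89. Under AO the ratios of Ppp1r15a were 2.32 at high density and 2.11 at low density. Ifnb1 had 43.5 CPM at high density, 1.62 CPM at low density and 22.4 CPM without a label under poly(I:C). The interaction of density with poly(I:C) has no test with 1 library per cell of the design, and the part of Ifnb1 in these values was not tested.

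**Figure D4:**
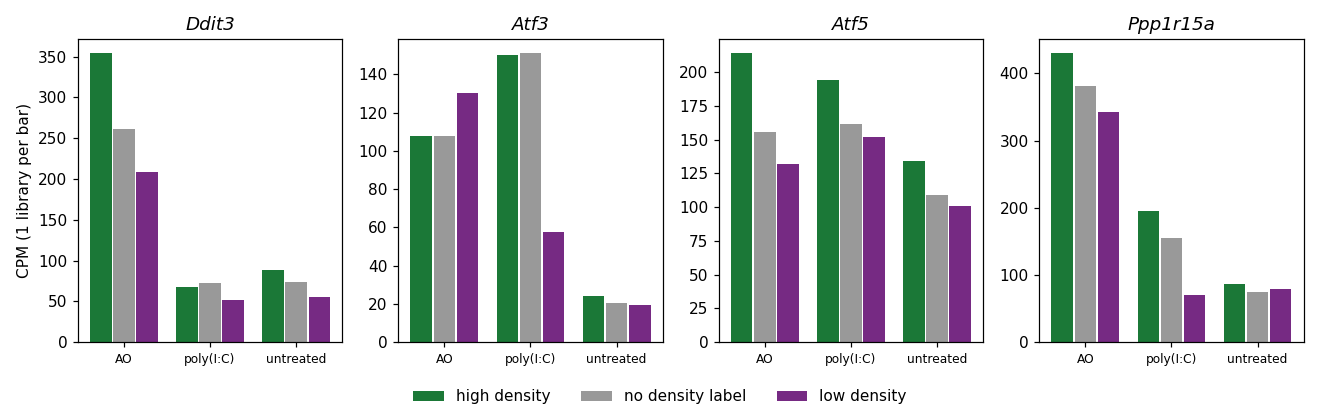
CPM of 4 genes in WT line E1.5 at high density, with no density label and at low density, 1 library per bar, for each treatment. Under poly(I:C) the low-density bars of Atf3 (57.5 CPM) and Ppp1r15a (70.9 CPM) stand far below the other two, while Ddit3 and Atf5 step down with density under AO.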

How the data were processed

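The deposited tables hold expected counts per gene, which per the labels came from total RNA of 36 libraries made with a stranded mRNA kit. STAR, RSEM and mm10 are named in the submitters' processing notes without versions. The authors' expected counts (5.68% to 11.1% of values not whole, tolerance 0.001) were rounded. Gene names and exon lengths came from GENCODE vM21 by gene ID (49326 of 49585 matched). Genes were filtered with filterByExpr (minimum count 10, total 15), scaled by TMM and fitted with edgeR 4.0.16 (R 4.3.3, limma 3.58.1) over 30 libraries in 9 groups, and over the 9 libraries of line E1.5 with treatment and density as terms. P-values were adjusted over all genes tested, with a threshold of 0.05. An SE is the log2 difference divided by the root of F. CPM correlations used a prior count of 2. DESeq2 1.42.0, RLE factors, library totals, a line-prefix term, no filter, compared groups alone, each line left out and lines as a replicate block were the alternatives. The same line was used in each treatment, so lines pair the libraries, and their deviations correlated at 0.342 to 0.765 over 30 pairs. Libraries of a group differed beyond counting noise (chi-square per degree of freedom 5.61 to 65.8). Named genes were the 10 members, the 3 genes of each pathway list with the smallest p under AO and the 2 under poly(I:C), the 3 genes most correlated with each member, and Tbk1, Hmox1 and Ifnb1 as checks. Members and lists were chosen with earlier results of these data known.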

Additional observations from a re-analysis of the deposited data

Results flagged for a closer look

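Het line E2.6 lay far from the other 3 het lines in 3 of 30 checks, those of Atf4 under AO (its gap to the nearest line was 0.968 of the range), Atf5 under poly(I:C) (0.843) and Ppp1r15a in untreated cells (0.885). Chance flags about 1 in 20 such groups.

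In the libraries without a density label, Ppp1r15a responded to poly(I:C) with opposite signs in hom lines and in the others. The fitted difference in hom lines was -0.24 ± 0.27 log2 units and did not pass, so a fall there is not established. All 3 hom lines moved down and all 3 WT lines up, a difference in mean log2 ratio of -1.21 (exact two-sided p = 0.1, the smallest possible with 3 lines against 3). All 4 het lines also moved up, and hom minus het was -1.44, a difference that was not tested. Plated at low density, WT line E1.5 had a log2 ratio of -0.16, on 1 library per treatment.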

How the results depend on the processing

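Counts of members called at adjusted p under 0.05 moved by over 1.5 times as follows. With lines as a replicate block, AO called 9 in hom, 10 in het and 9 in WT lines, and poly(I:C) called 1 in hom lines and 6 over all lines. The block could not be fitted for hom or het against WT, since each line has 1 genotype, and it moved no other count by over 1.5 times. With the compared groups alone, AO called 1 in hom and 9 in WT lines, poly(I:C) called 0 in het lines, and hom against WT under poly(I:C) called 0. Without lines E2.6 and E1.4, chosen after seeing the data, AO called 10 in each genotype, and poly(I:C) called 2 in hom lines, 5 in het lines and 7 over all lines. With the block as well, AO called 10 in each genotype, and poly(I:C) called 6 in hom, 7 in het and 7 in WT lines and 7 over all lines. DESeq2 called 1 for poly(I:C) in hom lines and 4 for density. With no filter on low counts, poly(I:C) called 1 in WT lines. Leaving out 1 line gave 3 to 9 for AO in hom lines, 2 to 7 for AO in WT lines, 0 to 1 for poly(I:C) in hom lines, 0 to 2 in WT lines, 2 to 4 over all lines, and 0 to 1 for hom against WT under poly(I:C). The highest of the AO counts, 9 and 7, came without E2.6. Leaving out 1 treatment gave 3 to 6 for density. Calls over all genes rose too: over all lines, poly(I:C) called 21.7% of all genes in the main fit. It called 39.4% with the block and 38.6% without lines E2.6 and E1.4. Apart from these shares and those given above, the counts of this paragraph have no share of all genes beside them. They cannot be read as particular to the members. The cause of these moves was not tested. Of the single log2 differences under all alternatives, 3108 kept their call, 123 passed only under the alternative and 69 no longer passed, and no called value changed sign. The member on the fewest counts was Cebpb, with 22 in untreated low-density cells.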
